A study of Mus musculus with 16 samples.

Results

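Cytochromes P450 of families 1, 2 and 3 are haem-containing monooxygenases of the endoplasmic reticulum. In liver they carry out the first oxidation of most drugs and foreign compounds, and several also act on steroids, bile acids, vitamin D and fatty acids. Ligands switch many of their genes through the aryl hydrocarbon receptor (AhR), the constitutive androstane receptor (CAR) and the pregnane X receptor (PXR), and growth hormone sets the sex bias of others. The protein-coding genes of the 3 families were chosen by symbol (Cyp1, Cyp2 or Cyp3, a letter and a number) from the deposited table of liver transcript levels, which gave 60 genes of the 55487 in the table. Another 23 genes with a matching symbol are annotated as pseudogenes and were left out.

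The livers came from 16 male C57BL6/J mice made obese on a high-fat diet, 4 in each of 4 groups and 1 library per mouse. All mice stayed on a high-fat diet, with either standard protein (SP) or high protein (HP). Each received a daily subcutaneous injection for 22 days of vehicle or of 2.5 nmol/kg G108, a long-acting peptide agonist of the glucagon receptor. The groups are named by injection and diet (vehicle SP and G108 SP, vehicle HP and G108 HP), and all 16 livers were taken after a fast of 4 h. The study asked how the dietary protein content changes what G108 does in liver. The sample records put the mice on the high-fat diet at 10 weeks of age, 8 weeks before the study began, and place the cull on day 25, and the paper's methods give another age and another cull day.

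Values are TPM, each gene's share of all transcripts of its library on a fixed total, which is per exon length and so can be compared between genes. Each library had 27.8 M to 45.0 M reads assigned to genes. Genes that code for the major urinary proteins (Mup genes) took 42.6% to 49.7% of all TPM in vehicle SP, 35.7% to 44.9% in vehicle HP, 18.4% to 23.0% in G108 SP and 18.2% to 29.6% in G108 HP. Genes of the mitochondrial genome took between 13.8% and 37.3%, the highest in 1 G108 HP mouse. Each library was therefore divided by its median ratio to the other libraries, and the result is called scaled TPM. The factors were 1.17 to 1.54 in G108 SP, above all 4 of vehicle SP (0.681 to 0.964), so that directions on SP depend on the scaling. Values on the deposited TPM are given beside the scaled ones where the direction or a call turned. Markers of hepatocytes summed to between 13376 and 36845 TPM, against 314 to 1062 for blood, at most 94.0 for Kupffer cells, 0.244 for adipocytes, 0.0296 for skeletal muscle and 0.142 for exocrine pancreas. In whole liver, fewer cells of a type and less RNA per cell cannot be told apart.

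The family as a whole was led by a few genes. Cyp2e1, which oxidizes ethanol and other small molecules, made up 26.9% to 42.8% of the summed TPM of the 60 members in every mouse. The Cyp2d subfamily held 19.3% to 28.2% and the Cyp2c subfamily 13.6% to 17.1%. Of the 60 members, 35 had a mean of at least 1 TPM and were tested. These were 1 of 2 Cyp1a genes, 4 of 4 Cyp2a, 1 of 5 Cyp2b, 11 of 15 Cyp2c, 7 of 8 Cyp2d, 3 of 8 Cyp2j and 4 of 9 Cyp3a genes, with Cyp2e1, Cyp2f2, Cyp2r1 and Cyp2u1 as the only tested gene of their subfamilies.

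The 25 members below that level included the classical targets of ligand-activated AhR and CAR. Cyp1a1 lay between 0.351 and 1.15 scaled TPM and Cyp1b1 between 0.0139 and 0.112 in all 16 mice. Cyp2b10, the standard marker of CAR activation, lay between 0.0191 and 0.774. The 5 female-biased members Cyp2b13, Cyp3a16, Cyp3a41a, Cyp3a41b and Cyp3a44 reached at most 1.29 in any mouse. Cyp2b23, Cyp2j12, Cyp2j13 and Cyp2w1 had no read in any library. A count of 0 allows up to 3 reads per library, which is 0.0162 to 0.0963 TPM over these 4 genes and the 16 libraries, and covers counting error only.

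The summed level of the family was lower with G108 on the scaled values. In the order of mice 1 to 4, the sum in scaled TPM was 5676, 6459, 7921 and 5590.0 in vehicle SP and 5939, 4360.1, 4469 and 4852 in G108 SP. On HP it was 5322, 6599, 6535 and 7835 with vehicle and 5595, 4336, 3776 and 5041 with G108. The treated and vehicle mice overlapped on both diets. The means were 6411 ± 1079 (SD, n = 4) in vehicle SP, 6573 ± 1026 in vehicle HP, 4905 ± 721 in G108 SP and 4687 ± 796 in G108 HP. As deposited, without scaling, the means were 5252 ± 1638, 6069 ± 1189, 6676 ± 618 and 4805 ± 1424 TPM in the same order, so the difference on SP turned with the scaling and that on HP did not. No p was computed for a sum over members. The Mup share moved with the groups in the same libraries, and its part in these sums was not tested. Shares of the sum do not depend on the scaling. The Cyp2c share was 14.7% ± 0.641 in vehicle SP, 15.3% ± 1.22 in vehicle HP, 15.6% ± 1.20 in G108 SP and 14.6% ± 0.833 in G108 HP. The Cyp1a share was 6.06% ± 1.33, 4.75% ± 0.736, 6.02% ± 0.712 and 6.54% ± 0.712 in the same order, and the Cyp2j share 1.95% ± 0.338, 2.10% ± 0.113, 2.64% ± 0.341 and 2.59% ± 0.230. On HP, the Cyp2j share was higher in every G108 mouse (2.31% to 2.79%) than in any vehicle mouse (1.96% to 2.20%). Divided by the same sum, 24.7% of all single genes tested also lay above without overlap on HP. The Cyp2d genes summed to 1477 to 1612 scaled TPM in vehicle SP and 1087 to 1348 in G108 SP, and to 1222 to 1511 and 1065 to 1206 on HP, without overlap on either diet. Among single genes, 4.69% of all tested lay lower without overlap on SP and 3.95% on HP, on scaled TPM. As deposited, the Cyp2d sum on SP was 1022 to 1554 with vehicle and 1437 to 1714 with G108, so the ranges overlapped and that of G108 lay higher.

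**Figure D1:**
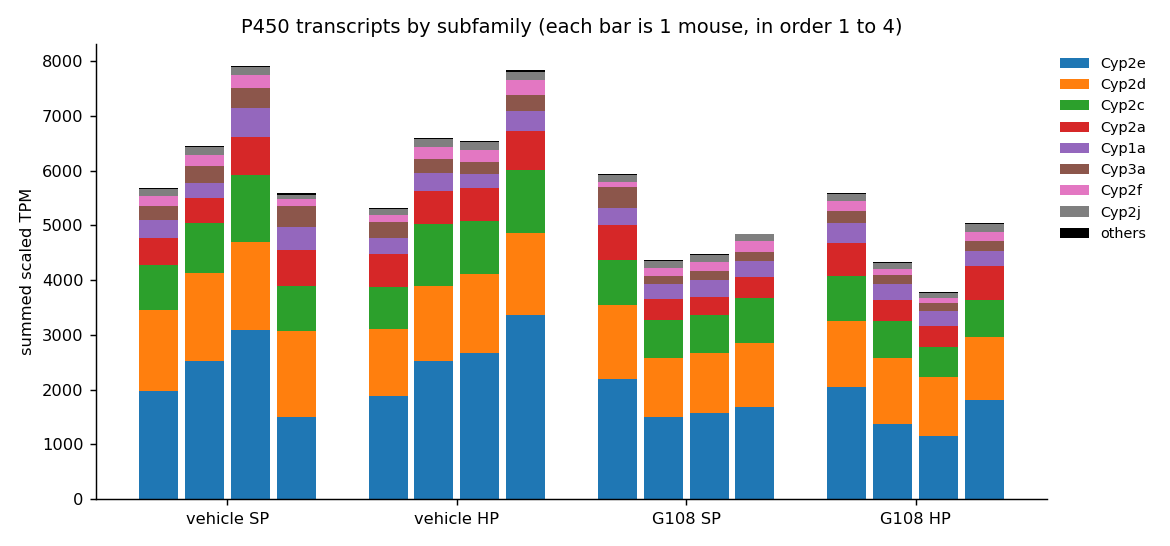
Summed scaled TPM of the 60 members in each of 16 mice, stacked by subfamily. Cyp2e1 is the largest block in every bar but that of vehicle SP mouse 4, where Cyp2d (1576) lies above Cyp2e1 (1501), and G108 SP mouse 1 (5939) stands above the other G108 SP mice (4360.1 to 4852).

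The comparison of G108 with vehicle on SP asked which members the agonist changed with standard protein. Of the 35 tested members, 2 were called lower at an adjusted p under 0.05 (limma on log2(scaled TPM + 1), Benjamini-Hochberg over all 11839 genes tested) and 0 higher. Of all genes tested, 2.72% were called and 1.39% were called lower. At an unadjusted p under 0.05 there were 14 members, all lower, which is 14 of 35 against 17.7% of all genes in either direction. The 4 treated mice lay below the 4 vehicle mice without overlap in 8 members, where 4.69% of all genes did, and above them in 0. These were Cyp2a12, Cyp2c37, Cyp2c50, Cyp2c54, Cyp2d9, Cyp2d10, Cyp2d40 and Cyp2u1, and with TPM as deposited none of the 8 did so. The median log2 fold change of the members was -0.36, that of all genes -0.01. Of the members, 27 of 35 were below 0, where 51.3% of all genes were. Without the scaling, on TPM as deposited, 12 members were called higher and 0 lower on SP, where 77% of all genes were called higher and 0.608% lower. On that scale the median of the members was 0.40 and that of all genes 0.60. The members' median thus lay below that of all genes tested on both scales. Scaling divides all genes of a library alike, so the second scale is no independent check of this order.

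On HP the comparison gave 2 members called lower and 0 higher, where 1.22% of all genes were called and 0.583% were called lower. Again 14 members had an unadjusted p under 0.05, all lower, against 11.3% of all genes. In 10 members the G108 HP mice lay below all vehicle HP mice, where 3.95% of all genes did. They were Cyp2a12, Cyp2b9, Cyp2c37, Cyp2c38, Cyp2c54, Cyp2c70, Cyp2d26, Cyp2d40, Cyp3a11 and Cyp3a59, and on the deposited TPM it held for 3 members (Cyp2b9, Cyp2c54 and Cyp3a11), where 1.21% of all genes lay below. The median of the members was -0.36 and that of all genes -0.00, with 30 of 35 members below 0, where 50.8% of all genes were. On the deposited TPM, 1 member was called, lower, where 1.11% of all genes were called, and the medians were -0.24 and 0.09. The members' median was below 0 on HP under both scalings.

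**Figure D2:**
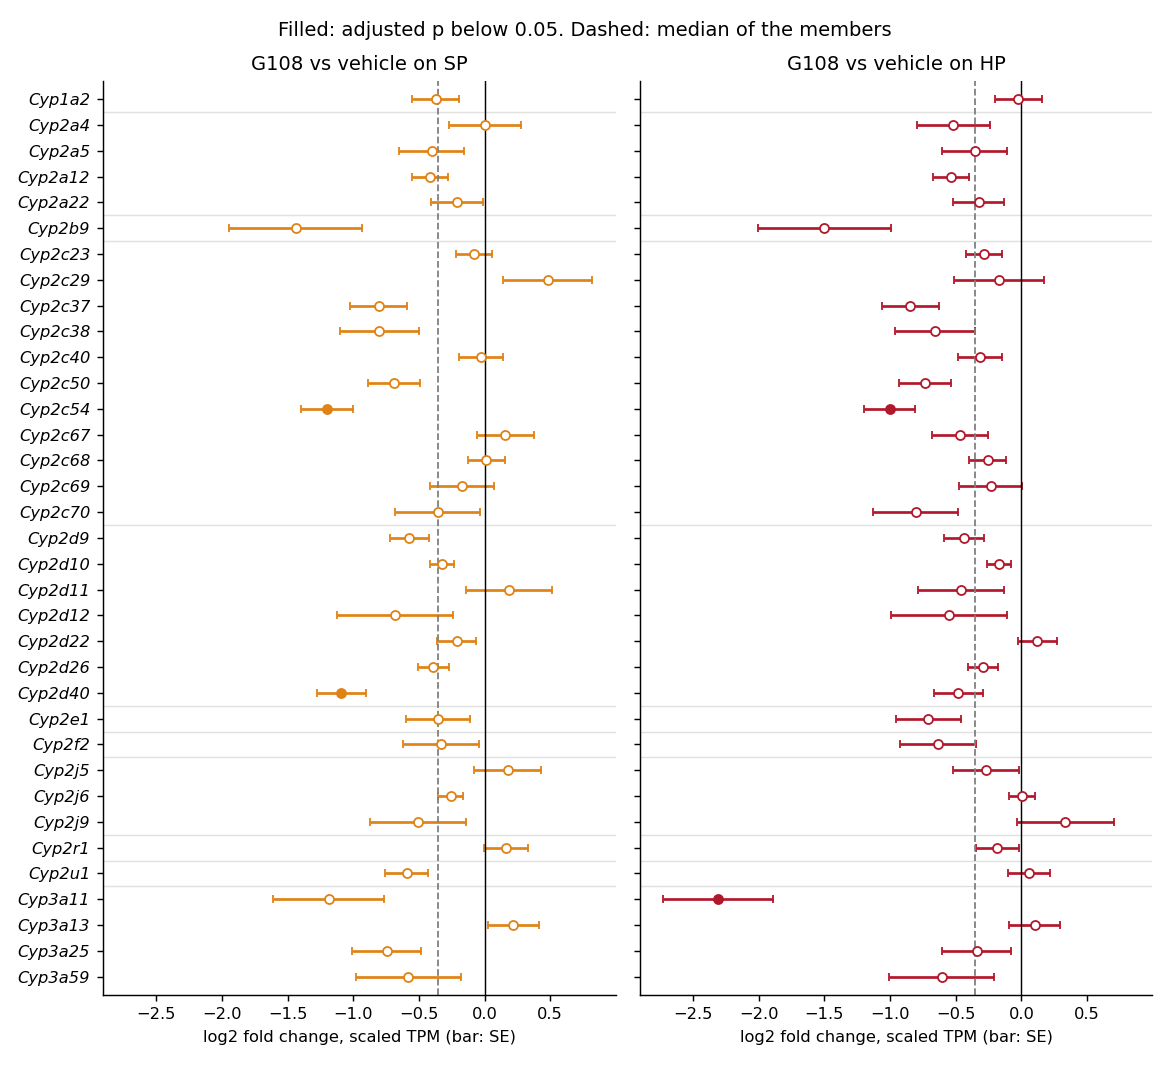
Log2 fold change of G108 against vehicle (log2 of scaled TPM + 1) with its SE for each of the 35 tested members, in rows by subfamily, on SP (left) and HP (right). Filled points passed the adjusted threshold (Cyp2c54 and Cyp2d40 on SP, Cyp2c54 and Cyp3a11 on HP), and the dashed lines mark the medians of the members (-0.36 on both diets).

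Cyp2c54 fell on both diets. It is one of the Cyp2c enzymes that act on arachidonic acid, and its gene (ENSMUSG00000067225) lies on the minus strand at chr19:40037940-40073827 in GRCm38. In the order of mice 1 to 4 its level was 94.9, 103, 148 and 157 scaled TPM in vehicle SP and 68.0, 50.6, 43.1 and 52.5 in G108 SP. In vehicle HP it was 90.3, 123, 122 and 143, and in G108 HP 73.1, 57.4, 49.2 and 56.7. Every treated mouse was below every vehicle mouse, on both diets. The log2 fold change was -1.20 (SE 0.20, adjusted p = 0.00372 in limma) on SP and -1.002 (SE 0.20, adjusted p = 0.0282) on HP, or 0.435 and 0.499 of the vehicle level. On the deposited TPM it was -0.43 (adjusted p = 0.0998) and -0.88 (adjusted p = 0.0944), the same direction but past the threshold on neither diet. The call on HP was also lost without any 1 of vehicle HP mice 2, 3 and 4 or G108 HP mice 2, 3 and 4, with adjusted p between 0.0524 and 0.115, without a filter on low values (0.0653), with only the groups compared (0.0536) and with the replicate number as a block (0.0686), while that on SP held without any 1 library.

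Cyp3a11 fell on HP. It is the main drug-metabolising Cyp3a enzyme of mouse liver and a target of PXR, and its gene (ENSMUSG00000056035) is at chr5:145854426-145879964 on the minus strand. In vehicle HP its level was 66.8, 50.2, 38.3 and 92.0 scaled TPM, and in G108 HP 20.9, 8.14, 9.02 and 9.51. The groups did not overlap. The log2 fold change was -2.31 (SE 0.42, adjusted p = 0.0193 in limma), or 0.202 of the vehicle level, and with TPM as deposited it was -2.18 (adjusted p = 0.0214). It was -1.60 (adjusted p = 0.0169) with array quality weights. The call was lost without any 1 of vehicle HP mouse 4 or G108 HP mice 2, 3 and 4 (adjusted p between 0.0620 and 0.0892), without a filter on low values (0.0624) and with the replicate number as a block (0.0548). On SP the levels were 45.7, 79.5, 107 and 75.7 with vehicle and 76.0, 19.5, 35.0 and 19.4 with G108, so that 3 treated mice lay below all vehicle mice and G108 SP mouse 1 lay among them. On SP the log2 fold change was -1.19 (SE 0.42, adjusted p = 0.163). Without G108 SP mouse 1 it was -1.60 (adjusted p = 0.0282). The difference between the diets was not called, as the interaction was -1.12 (SE 0.60, adjusted p = 0.575).

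Cyp2d40 fell on SP. It belongs to the Cyp2d subfamily, whose human member oxidizes many drugs, and its gene (ENSMUSG00000068083) is at chr15:82759833-82764183 on the minus strand. The levels were 36.5, 45.7, 48.9 and 66.7 scaled TPM in vehicle SP and 30.9, 20.5, 15.8 and 23.9 in G108 SP, without overlap. The log2 fold change was -1.09 (SE 0.19, adjusted p = 0.00506 in limma), or 0.469 of the vehicle level. The value on the deposited TPM was -0.34 (adjusted p = 0.126), and with only the groups compared the adjusted p was 0.0836. In vehicle HP the levels were 29.9, 29.1, 32.5 and 31.5, all below vehicle SP, and in G108 HP 24.6, 19.0, 22.6 and 21.0, all below vehicle HP. On HP the log2 fold change with G108 was -0.48 (SE 0.19, adjusted p = 0.296), and the interaction was 0.61 (SE 0.26, adjusted p = 0.575).

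**Figure D3:**
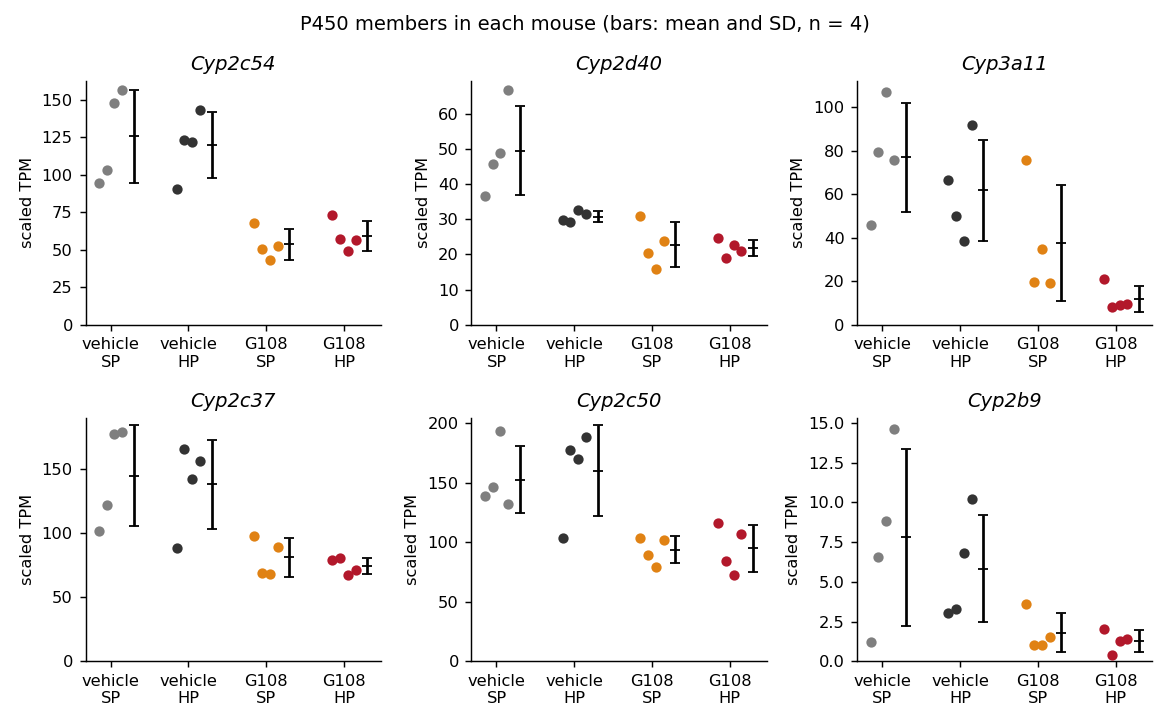
Scaled TPM in each mouse (points) with the mean and SD of the 4 mice (bars) for the 3 members called and for Cyp2c37, Cyp2c50 and Cyp2b9. For Cyp2c54 every G108 mouse (43.1 to 73.1) lies below every vehicle mouse (90.3 to 157), while for Cyp3a11 G108 SP mouse 1 (76.0) stands among the vehicle mice.

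The next members on either side of Cyp2c54 on chromosome 19, which were picked out after their values were seen, were also lower with G108 on the scaled values. Cyp2c37 (chr19:39992424-40012243) and Cyp2c50 (chr19:40089688-40113950), both on the plus strand, lie within 122 kb with it and are, with Cyp2c54, among the members that CAR and PXR ligands are known to induce. Cyp2c37 was at 102, 122, 177 and 179 scaled TPM in vehicle SP and 98.0, 69.0, 68.3 and 89.5 in G108 SP, and at 88.4, 166, 142 and 156 in vehicle HP and 78.8, 80.8, 67.2 and 71.2 in G108 HP. The treated mice were below the vehicle mice on both diets, but neither change was called, with log2 fold changes of -0.81 (SE 0.22, adjusted p = 0.0653 in limma) and -0.85 (SE 0.22, adjusted p = 0.0853). Cyp2c50 was at 139, 146, 194 and 132 in vehicle SP and 104, 89.5, 79.5 and 102 in G108 SP, and at 104, 178, 169.7 and 189 in vehicle HP and 116, 84.7, 72.3 and 107 in G108 HP. The groups did not overlap on SP and overlapped on HP. It had -0.69 (SE 0.20, adjusted p = 0.0842) on SP and -0.74 (SE 0.20, adjusted p = 0.103) on HP. On the deposited TPM the values on SP were -0.04 for Cyp2c37 and 0.08 for Cyp2c50, and on HP -0.72 and -0.61. The other Cyp2c genes of the cluster ranged from -0.80 (Cyp2c38) to 0.48 (Cyp2c29) on SP and from -0.80 (Cyp2c70) to -0.17 (Cyp2c29) on HP.

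Reads of such neighbours can be hard to assign. Of the sequences of 31 bases in the annotated transcripts, 42.3% of those of Cyp2c54, 47.4% of those of Cyp2c37 and 29.2% of those of Cyp2c50 also occur in another gene. How the counting treated reads that match several genes is not given in the sources used here, so the split of reads among these 3 genes is uncertain. Over the 35 tested members the median share was 26.1%, and 8 members shared at least 50%. Cyp3a11 shared 15.8%, Cyp2d40 27.6% and Cyp2e1 5.83%.

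**Figure D4:**
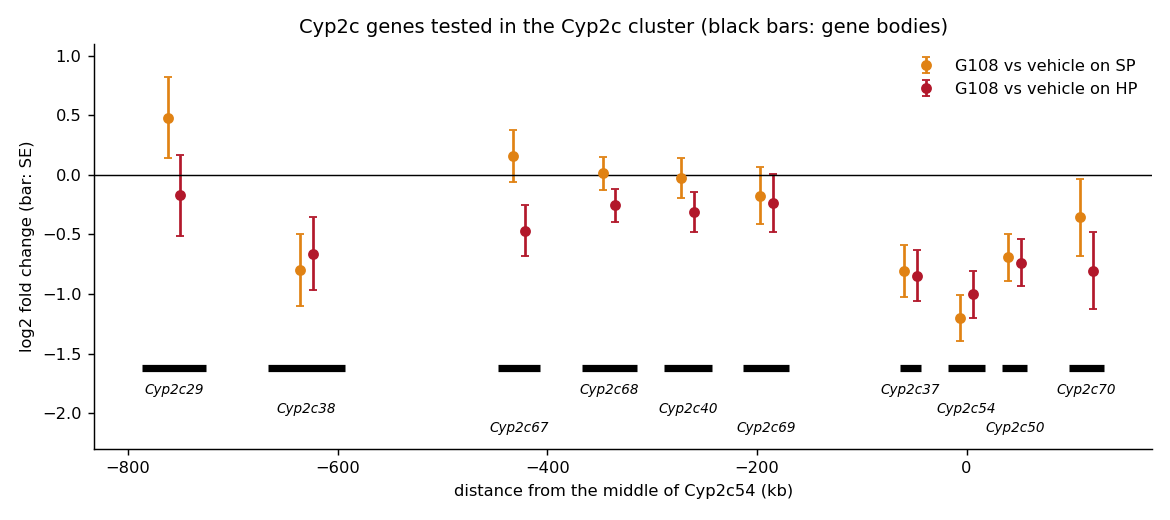
Log2 fold change of G108 against vehicle with its SE for the 10 tested Cyp2c genes of the chromosome 19 cluster, by the distance of the gene's middle from that of Cyp2c54 in kb, with black bars for the gene bodies and the points of the diets set slightly apart. Cyp2c37, Cyp2c54 and Cyp2c50 lie between -0.69 and -1.20 on both diets, and Cyp2c29, the farthest to the left, lies at 0.48 on SP and -0.17 on HP.

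The RefSeq windows of 250 bases before and 50 after the annotated start (GRCm38.p6) are shown for Cyp3a11 and Cyp2d40, which were called, and for Cyp2c37 and Cyp2c50, the neighbours of Cyp2c54, whose own window was not used here. Sequences run 5′ to 3′ on the strand of the gene, and capitals mark matches, on either strand, to AGGTCA, the half-site bound by nuclear receptors such as CAR and PXR.

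Cyp3a11 (chr5:145879805-145880104, minus strand): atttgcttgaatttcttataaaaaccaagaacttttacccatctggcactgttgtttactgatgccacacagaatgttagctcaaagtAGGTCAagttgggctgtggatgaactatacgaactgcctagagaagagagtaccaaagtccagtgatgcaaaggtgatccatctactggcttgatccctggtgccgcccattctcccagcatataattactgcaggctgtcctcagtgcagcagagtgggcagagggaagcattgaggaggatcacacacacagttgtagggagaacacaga

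Cyp2d40 (chr15:82764073-82764372, minus strand): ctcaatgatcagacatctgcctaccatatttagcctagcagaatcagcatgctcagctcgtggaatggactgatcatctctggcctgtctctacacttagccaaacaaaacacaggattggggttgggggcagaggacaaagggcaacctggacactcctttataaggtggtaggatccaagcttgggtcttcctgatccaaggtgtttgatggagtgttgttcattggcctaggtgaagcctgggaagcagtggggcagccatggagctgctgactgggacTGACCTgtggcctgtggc

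Cyp2c37 (chr19:39992174-39992473, plus strand): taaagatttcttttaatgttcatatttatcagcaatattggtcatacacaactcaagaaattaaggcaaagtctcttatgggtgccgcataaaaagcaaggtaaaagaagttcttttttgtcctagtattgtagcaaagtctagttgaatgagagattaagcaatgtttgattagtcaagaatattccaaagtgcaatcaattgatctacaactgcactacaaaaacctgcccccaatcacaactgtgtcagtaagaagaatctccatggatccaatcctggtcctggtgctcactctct

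Cyp2c50 (chr19:40089429-40089728, plus strand): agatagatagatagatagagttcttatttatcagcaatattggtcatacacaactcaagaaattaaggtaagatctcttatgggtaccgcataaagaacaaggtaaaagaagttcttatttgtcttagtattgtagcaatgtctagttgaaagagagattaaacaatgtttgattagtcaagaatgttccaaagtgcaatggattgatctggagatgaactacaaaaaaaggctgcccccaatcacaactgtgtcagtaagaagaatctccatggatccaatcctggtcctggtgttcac

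The windows of Cyp2c37 and Cyp2c50 had 264 identical bases in a global alignment (86.6% of its columns), against 178 (50.6%) for Cyp2c37 and Cyp2c70, the next gene of the cluster. AGGTCA occurred once in the Cyp3a11 window, starting 162 bases before the annotated start, and once in that of Cyp2d40, on the other strand and 32 bases after it. Windows were matched for 52 of the 60 members (55 windows). AGGTCA was in 19 of these, 34.5%, and in 16.3% of all 32851 windows. GCGTG, the core bound by AhR, was in 10 (18.2%, against 32.4% of all), TTCNNNGAA, the motif of STAT proteins, in 2 (3.64% against 8.30%) and TGACGTCA, the cAMP response element, in 0 (0% against 1.79%). These matches are of letters only, and the motifs may overlap. The 55 windows are not independent. Cyp3a25 and Cyp2j13 are each counted with overlapping windows, and related members can have similar windows, as Cyp2c37 and Cyp2c50 do. Cyp2c39 is counted with a further window at chr19:39347096-39347395, outside its annotated gene (chr19:39510862-39568529). AGGTCA was in that window and not in the one at the start of the gene. The percentages therefore describe the windows and were not tested.

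Cyp2b9, a female-biased gene and the only tested Cyp2b member, had the largest SE of the 35 tested members on both diets. Its level ranged from 1.20 to 14.6 scaled TPM within vehicle SP. The other values in that group were 6.55 and 8.85. In G108 SP it was 3.60, 1.00, 1.02 and 1.56, in vehicle HP 3.07, 3.31, 6.79 and 10.2, and in G108 HP 2.05, 0.431, 1.26 and 1.41. The G108 HP mice lay below all vehicle HP mice, and on SP the groups overlapped. The log2 fold changes, -1.44 (SE 0.51, adjusted p = 0.162 in limma) on SP and -1.50 (SE 0.51, adjusted p = 0.214) on HP, were not called, and with TPM as deposited they were -0.92 and -1.39. On the log2(value + 1) scale the fold change of so low a gene is understated.

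Cyp2e1 was the most abundant member in all groups. In the order of mice 1 to 4 its level was 1971, 2524, 3089 and 1501 scaled TPM in vehicle SP, 2195, 1496, 1567 and 1682 in G108 SP, 1882, 2518, 2661 and 3356 in vehicle HP and 2054, 1375, 1156 and 1817 in G108 HP. The treated and vehicle mice overlapped on both diets. The log2 fold change was -0.35 (SE 0.25, adjusted p = 0.445 in limma) on SP and -0.71 (SE 0.25, adjusted p = 0.231) on HP, and 0.42 and -0.58 with TPM as deposited.

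Among the Cyp2d genes, 6 of 7 were below 0 on SP and 6 of 7 on HP, where 51.3% and 50.8% of all genes were. These counts were 2 and 6 on the deposited TPM, where 3.60% and 29.6% of all genes lay below 0. Cyp2d10, the most abundant, was at 533, 561, 559 and 494 scaled TPM in vehicle SP and 482, 400.2, 414 and 421 in G108 SP. The G108 SP mice were below the vehicle SP mice, with a log2 fold change of -0.32 (SE 0.09, adjusted p = 0.0827 in limma), but with TPM as deposited the gene was called higher (0.45, adjusted p = 0.0258). In vehicle HP it was at 459, 502, 488 and 505 and in G108 HP at 432, 464, 433 and 408, a log2 fold change of -0.17 (SE 0.09, adjusted p = 0.542). Cyp2d9, the male-biased member, had -0.57 (SE 0.15, adjusted p = 0.0596) on SP and -0.44 (SE 0.15, adjusted p = 0.230) on HP, and 0.20 and -0.31 with TPM as deposited.

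Of the 11 Cyp2c genes, 8 were below 0 on SP and 11 on HP, and on the deposited TPM 3 and 11. Of all genes, 51.3% and 50.8% were below 0, and 3.60% and 29.6% on the deposited TPM. Cyp2c29, a known CAR target and the subfamily's gene with the highest mean TPM over all 16 mice, though below Cyp2c50 in both vehicle groups, was at 109.9, 128, 202 and 59.9 scaled TPM in vehicle SP and 184, 125, 138 and 205 in G108 SP, with overlap. Its log2 fold change on SP was 0.48 (SE 0.34, adjusted p = 0.453 in limma), the highest of the 35 members, and with TPM as deposited it was called higher (1.25, adjusted p = 0.0148). On HP it was at 88.7, 177, 165 and 156 with vehicle and 181, 93.4, 93.4 and 159 with G108, and the log2 fold change was -0.17 (SE 0.34, adjusted p = 0.908).

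For Cyp3a11, Cyp3a25 and Cyp2a5, though not for every gene of their subfamilies, G108 SP mouse 1 stood apart from the other G108 SP mice. Cyp2a12, for example, lay between 64.7 and 84.1 scaled TPM in G108 SP, with a median of 73.9. G108 SP mouse 1 was also the highest of its group in Cyp2b9, Cyp2c37, Cyp2c50, Cyp2c54, Cyp2d10, Cyp2d40, Cyp2e1 and Cyp2u1. In Cyp1a2, Cyp2c29, Cyp2f2, Cyp2j5 and Cyp2r1 another G108 SP mouse was the highest. Cyp3a25, the most abundant Cyp3a gene, was at 173, 194, 217 and 283 scaled TPM in vehicle SP and 259, 97.1, 97.4 and 105 in G108 SP. Of the treated mice, 3 lay below all vehicle mice and mouse 1 lay among them, as for Cyp3a11. The log2 fold change was -0.75 (SE 0.26, adjusted p = 0.164 in limma), and without G108 SP mouse 1 it was -1.09 (adjusted p = 0.00255). On HP the levels were 197, 178, 149 and 165 with vehicle and 167, 119, 121 and 138 with G108, with a log2 fold change of -0.34 (SE 0.26, adjusted p = 0.720). Cyp2a5, which hydroxylates coumarin, was at 374, 312, 530.2 and 542 in vehicle SP, at 512, 291, 256 and 288 in G108 SP, at 456, 477, 475 and 554 in vehicle HP and at 475, 285, 313 and 502 in G108 HP. The groups overlapped on both diets, with log2 fold changes of -0.40 (SE 0.25, adjusted p = 0.394) and -0.36 (SE 0.25, adjusted p = 0.672). Without G108 SP mouse 1, 9 members were called on SP in place of 2, all lower, among them Cyp3a11, Cyp3a25 and Cyp3a59. How many of all genes were called without this mouse was not counted, so these calls have no background beside them. With TPM as deposited the SP value was 0.03 for Cyp3a25 and 0.37 for Cyp2a5.

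Cyp1a2, which hydroxylates caffeine and was the only tested AhR target of the family, was at 328, 279, 531 and 414 scaled TPM in vehicle SP, 304, 265, 306 and 290.2 in G108 SP, 298, 324, 249.9 and 362 in vehicle HP and 363, 302, 269 and 279 in G108 HP. All groups overlapped. Its log2 fold change was -0.37 (SE 0.18, adjusted p = 0.289 in limma) on SP and -0.02 (SE 0.18, adjusted p = 0.980) on HP, where its 95% interval ran from -0.40 to 0.36. Its values on the deposited TPM were 0.40 on SP and 0.10 on HP.

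Of 6 tested members on a fixed list of members with endogenous substrates, 0 were called with G108 on either diet. Cyp2c54, which also acts on arachidonic acid, was not on this list. Cyp2r1, a vitamin D 25-hydroxylase, was at 3.51, 3.11, 3.50 and 1.37 scaled TPM in vehicle SP, 2.71, 3.00, 3.44 and 3.69 in G108 SP, 3.35, 3.74, 3.57 and 3.13 in vehicle HP and 3.03, 2.92, 2.49 and 3.25 in G108 HP. Its log2 fold changes were 0.16 (SE 0.17, adjusted p = 0.605 in limma) and -0.18 (SE 0.17, adjusted p = 0.780), and the groups overlapped on both diets. Cyp2j5, an epoxygenase of arachidonic acid, was at 96.8, 122, 138 and 54.7 in vehicle SP and at 104, 109, 112 and 115 in G108 SP. On HP it was at 87.1, 124, 126 and 135 with vehicle and 111, 92.8, 66.7 and 124 with G108. The log2 fold changes were 0.17 (SE 0.25, adjusted p = 0.714) and -0.27 (SE 0.25, adjusted p = 0.782). On the deposited TPM, 4 of the 6 were called higher on SP, where 77% of all genes were. Among them were Cyp2r1 and Cyp2j5 (0.73 and 0.94). Cyp2u1, which hydroxylates fatty acids, was at 10.8, 10.4, 8.88 and 12.8 in vehicle SP and 8.41, 6.28, 5.63 and 6.78 in G108 SP, and at 10.3, 7.12, 6.65 and 6.97 in vehicle HP and 8.41, 9.77, 8.42 and 5.92 in G108 HP. It was lower without overlap on SP (-0.59, SE 0.16, adjusted p = 0.0704) and overlapped on HP (0.06, SE 0.16, adjusted p = 0.934). Its values on the deposited TPM were 0.10 and 0.17.

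Cyp2f2, a naphthalene-metabolising enzyme typical of periportal hepatocytes and airway cells, was at 185, 217, 229.5 and 126 scaled TPM in vehicle SP, 98.8, 146, 161 and 196 in G108 SP, 132, 218, 211 and 279.6 in vehicle HP and 179.8, 116, 85.2 and 164 in G108 HP. The groups overlapped, with log2 fold changes of -0.33 (SE 0.29, adjusted p = 0.530 in limma) and -0.63 (SE 0.29, adjusted p = 0.424), and 0.44 and -0.51 with TPM as deposited.

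A ratio within the library does not depend on the scaling, and each member was therefore also divided by the summed TPM of the 60 members. On SP, Cyp2c54, Cyp2c50 and Cyp2d40 took a lower share of the family in every G108 mouse than in any vehicle mouse, 3 of 35 where 0.718% of all genes lay below on the same ratio, and Cyp2c29 and Cyp2c68 a higher share, where 12.6% of all genes lay above. On HP, Cyp2c54, Cyp3a11 and Cyp2b9 took a lower share (0.473% of all genes did) and Cyp3a13 a higher one (24.7%). Cyp2c54 made up 1.60% to 2.80% of the family in vehicle SP and 0.964% to 1.16% in G108 SP, and 1.70% to 1.87% and 1.12% to 1.32% on HP. Cyp3a11 made up 0.586% to 1.26% in vehicle HP and 0.188% to 0.374% in G108 HP. The summed TPM used as divisor was itself lower with G108 on the scaled values, and more genes lay above than below on this ratio. The shares of all genes are therefore no even background for single members. Such a ratio shows that members changed unequally, not that others stayed constant.

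**Figure D5:**
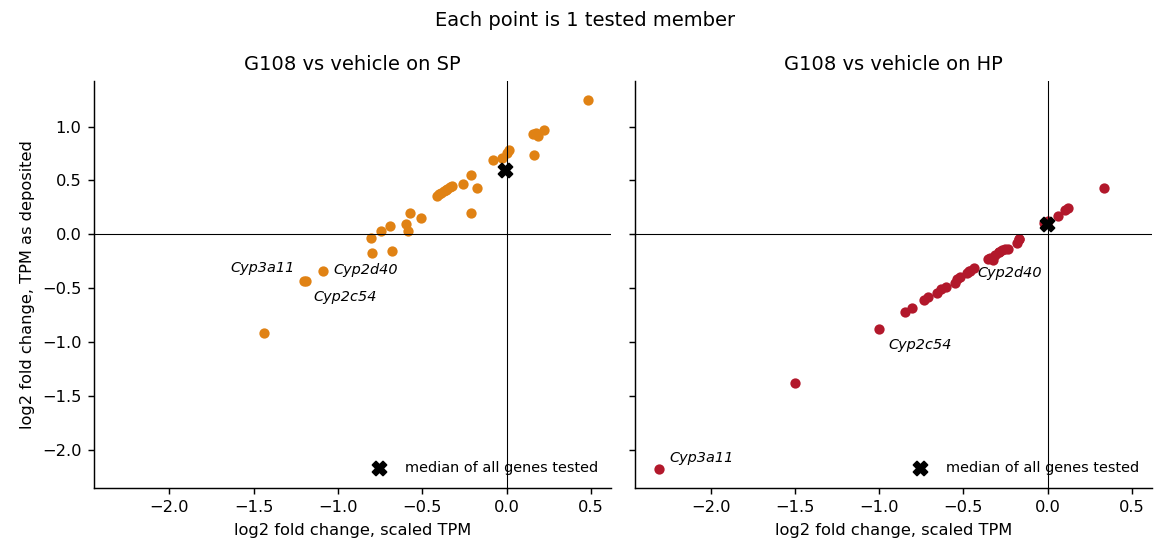
Log2 fold change of G108 against vehicle for the 35 tested members with scaled TPM (x axis) and with TPM as deposited (y axis), on SP (left) and HP (right), with a cross at the median of all genes tested. On SP the cross lies at -0.01 and 0.60 and the members' medians at -0.36 and 0.40, and Cyp2c54, Cyp2d40 and Cyp3a11 lie below 0 on both axes.

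Comparing HP with SP asked what dietary protein changed. With G108, 0 members were called in limma, as were 0% of all genes. At an unadjusted p under 0.05 there was 1 member, Cyp3a11 (-1.44, SE 0.42, adjusted p = 0.800), where 5.4% of all genes were past it, and the diets overlapped because G108 HP mouse 1 (20.9 scaled TPM) lay above G108 SP mice 2 and 4. The groups did not overlap in 1 member, Cyp2c67, which was lower on HP (-0.45, SE 0.22, adjusted p = 0.858), where 2.12% of all genes were. With vehicle, 0 members and 0% of all genes were called, 2 members, Cyp2d40 and Cyp2u1, had an unadjusted p under 0.05, where 3.94% of all genes did, and Cyp2d40 was lower on HP without overlap (-0.64, SE 0.19, adjusted p = 0.832), where 1.07% of all genes were. Unscaled, 0 members were called in either comparison, 10 members were past the unadjusted threshold with G108, all lower on HP (45% of all genes were), 12 lay lower on HP without overlap (20.5% of all genes did), and with vehicle 1 was past it, lower (3.16% of all genes). For the interaction of G108 and diet, 0 members and 0% of all genes were called. The same 2 members, Cyp2d40 and Cyp2u1 (0.65, SE 0.23, adjusted p = 0.575), had an unadjusted p under 0.05, where 7.21% of all genes did, both with values above 0. Unscaled, 0 members were called and 12 had an unadjusted p under 0.05, all below 0, where 48% of all genes did. Cyp2d40 (-0.02, SE 0.28) and Cyp2u1 (0.07, SE 0.19) were not among these 12. Voom on recovered reads also called 0 members in these 3 comparisons. The comparisons of G108 with vehicle on SP and on HP set different mice against each other, and the comparisons of diets use the same mice as both. All of them share 1 variance per gene over the 16 libraries, so the tests on SP and on HP are not independent.

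Genes that act with the P450 enzymes or control them were taken from fixed lists. Of 12 receptors and factors tested, 1 was called with G108 on SP, lower, where 1.39% of all genes were called lower. On the deposited TPM 6 were called higher, where 77% of all genes were, and 0 lower. The gene called was Nr1i3, which encodes CAR, at 132 ± 53.8 scaled TPM (SD, n = 4) in vehicle SP and 57.7 ± 24.6 in G108 SP, a log2 fold change of -1.18 (SE 0.25, adjusted p = 0.0187 in limma). On HP it had -0.30 (SE 0.25, adjusted p = 0.756), and with TPM as deposited -0.42 (adjusted p = 0.0823) on SP and -0.17 on HP. Nr1i2, which encodes PXR, had -0.03 (SE 0.16, adjusted p = 0.923) on SP and 0.43 (SE 0.16, adjusted p = 0.258) on HP, and 0.72 (adjusted p = 0.00133) and 0.55 with TPM as deposited.

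Of 5 tested members on the list of CAR and PXR targets, 1 was lower on SP (Cyp2c54) and 2 on HP (Cyp2c54 and Cyp3a11), with list medians of -0.81 and -0.85 against -0.01 and -0.00 for all genes, of which 1.39% and 0.583% were called lower. Of the same 5, the deposited TPM gave 1 higher (Cyp2c29) and 0 lower on SP, and 1 lower on HP (Cyp3a11). This list was written with earlier results of these data known. It holds the neighbours Cyp2c37, Cyp2c54 and Cyp2c50, among which the split of reads is uncertain. Its medians are therefore a description only and no independent evidence about CAR and PXR targets. Of 6 other CAR and PXR targets tested, 0 were called on either diet, with medians of -0.28 and -0.34. The 5 electron donors, among them Por, the reductase that supplies all microsomal P450 enzymes, and the 9 haem genes gave 0 calls, with medians on SP of -0.19 and 0.01. The 7 growth hormone signalling genes and the 1 tested of the other AhR targets gave 0 calls, and the 4 female-biased non-members were below 1 TPM. With TPM as deposited, 77% of all genes tested were called higher on SP. In these lists this held for 3 of the other CAR and PXR targets, 5 electron donors and 7 haem genes. It also held for 4 growth hormone signalling genes and the 1 other AhR target, with 0 lower and with 0 called on HP.

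Of 6 male-biased non-members, Cyp4a12a was lower on SP (-1.26, SE 0.26, adjusted p = 0.0149 in limma, and -0.53 with TPM as deposited) and Elovl3 higher (1.25, SE 0.31, adjusted p = 0.0450, and 2.00 as deposited). Of 5 pericentral genes tested, Oat (1.28, SE 0.22, adjusted p = 0.00497) and Slc1a2 (0.63, SE 0.11, adjusted p = 0.00522), which handle ornithine and glutamate, were higher on SP, and 0 were called on HP. Of all genes tested, 2.72% were called on SP and 1.22% on HP, in either direction. On the deposited TPM, 3 of the male-biased genes and 5 of the pericentral genes were called higher on SP, where 77% of all genes were. The 3 tested female-biased members and Cyp2d9, the male-biased member, gave 0 calls on either diet, and on the deposited TPM 1 female-biased member (Cyp2a4) was called higher on SP. In the comparisons of diets and the interaction no list had a call.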

How the data were processed

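RNA from 16 whole livers, 1 library per mouse, was sequenced. The authors aligned reads to GRCm38 with HISAT2 2.0.5, counted them with featureCounts over the GRCm38.102 annotation, and deposited TPM computed from counts and exon length. Whether strand was used and how reads matching several genes were counted are not given in the sources used here. Genes were named from GENCODE vM21 (55227 of 55487 matched). Multiplied by exon length, 98.7% of 139252 low values came to whole reads (tolerance 0.02), which gave the depth.

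TPM was divided by a median-of-ratios factor over 11591 genes, as in DESeq2, which the authors used, since the values as deposited moved the median of all genes by 0.60 (log2) with G108 on SP. Genes with a mean of at least 1 TPM (11839) were tested on log2(value + 1) in limma 3.58.1 (R 4.3.3) with an intensity trend, 1 mean per group over all 16 libraries and Benjamini-Hochberg adjustment over all genes, called at an adjusted p under 0.05. The fit was tested on simulated data. Samples were grouped by their labels. P-values measure the spread between mice of 1 experiment. Replicates correlated at 0.929 to 0.989 (Pearson's r of log values across genes) and none were duplicates.

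Members and lists were chosen with earlier results of these data known. Values in every mouse are given for members called in any comparison, for the tested member of each subfamily with the highest mean and for neighbours of Cyp2c54, and other members by ranges and counts. Alternatives were TPM as deposited, pseudocount 0.1, other filters, other sets of libraries, the replicate number as a block, array weights, voom on recovered reads and leaving out each mouse. RefSeq windows came from GRCm38.p6.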

Additional observations from a re-analysis of the deposited data

Results flagged for a closer look

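In 4 groups of 60 looked at (14 members and the sum of all 60, each in 4 groups), 1 mouse lay apart from the other 3 by more of the group's range than Dixon's 95% critical value for 4 samples, which chance passes in about 1 of 20 groups. Cyp3a25 was at 259 scaled TPM in G108 SP mouse 1 and at 97.1 to 105 in the other G108 SP mice. Cyp2a5 was at 512 in the same mouse and at 256 to 291 in the others. Cyp3a11 was at 20.9 in G108 HP mouse 1 and at 8.14 to 9.51 in the other G108 HP mice. Cyp2u1 was at 10.3 in vehicle HP mouse 1 and at 6.65 to 7.12 in the other vehicle HP mice.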

How the results depend on the processing

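The number of members called was 2 on SP and 2 on HP. On SP it was 12 (all higher) with TPM as deposited, 4 with a mean of at least 5 TPM, 1 with only the groups compared and 17 (all lower) with array quality weights, and 2 to 9 when 1 mouse was left out. It was 9 without G108 SP mouse 1, 6 without vehicle HP mouse 1 and 5 without vehicle SP mouse 1. On HP it was 1 with TPM as deposited, 0 without a filter on low values, 1 with only the groups compared and 7 with weights. Leaving out 1 mouse gave 0 to 4, with 4 without vehicle HP mouse 1, 1 without vehicle HP mouse 2 or 3, and 0 without vehicle HP mouse 4 or G108 HP mouse 2, 3 or 4. The comparisons of diets and the interaction gave 0 members called in each alternative run. Voom on recovered reads called 3 members on SP and 2 on HP. Calls over all genes were counted only for the main run and for TPM as deposited. The other counts of members therefore have no background beside them. Cyp2d10 on SP turned from -0.32 to 0.45 with TPM as deposited. With the replicate number as a block (replicate block) 2 members were called on SP and 0 on HP. Over all genes tested, same-numbered mice correlated at -0.57 to 0.53 (median -0.03, over 0.1 in 8 of 24 pairs). Other pairs of mice from different groups had a median of 0.02 (over 0.1 in 32 of 72). The labels do not say whether same-numbered mice were handled together, and this was not tested. The mice flagged above were all numbered 1. With TPM taken over a total without Mup genes and genes of the mitochondrial genome, the members summed to 14112 in vehicle SP, 14312 in vehicle HP, 11133 in G108 SP and 9699 in G108 HP, and scaled TPM gave 4905 in G108 SP. The cause of each change was not tested. With 4 mice per group, the SE of the log2 fold change of G108 against vehicle ran from 0.09 (Cyp2d10) to 0.51 (Cyp2b9) among the 14 members described in full.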
